A study of Homo sapiens with 18 samples.

Results

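The BMP and SMAD signalling genes described here were 10 genes selected by symbol from the 31004 genes of the count table. They comprised the ligands BMP4 and BMP7, the decoy receptor BAMBI, the inhibitory SMADs SMAD6 and SMAD7, the ubiquitin ligases SMURF1 and SMURF2, and the target genes ID1, ID2 and ID3. All 10 were listed once, passed the filter on low counts in every comparison and are reported below. The cells were HCT116, an established line from a human colorectal carcinoma, and RNA was sequenced from 6 groups of 3 biological replicates, 18 libraries in all. Every culture came from HCT116 carrying a stable lentiviral vector with GFP and puromycin selection, which expressed the long noncoding RNA CRLM1 (CRLM1 background), its antisense sequence (Antisense background) or nothing further (empty vector, Ctrl background). Each background then received a construct for overexpression of HNRNPK or its negative control (NC). The groups are therefore Ctrl_NC, CRLM1_NC, Antisense_NC, Ctrl_hnRNPK, CRLM1_hnRNPK and Antisense_hnRNPK. How many independent stable lines stood behind each background is not given in the sources used here, so the spread between replicates may not include the spread between lines.

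Bone morphogenetic proteins are secreted ligands that bind paired type I and type II serine/threonine kinase receptors. The activated receptors phosphorylate SMAD1, SMAD5 and SMAD9, which enter the nucleus with SMAD4 and switch on targets such as the ID genes. The same signal induces its own brakes: SMAD6 and SMAD7 block the receptors or their SMADs, SMURF1 and SMURF2 attach ubiquitin to receptors and SMADs, and BAMBI resembles a type I receptor without a working kinase. In the intestine, BMP signalling is known to oppose the stem cell programme of the crypt and to favour differentiation.

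Total counts ranged from 19732681 to 27039520 per library. The counts behind the genes ranged from 10 to 17013 in a library, with the lowest values for SMAD6 (10 to 128). CRLM1 (LINC01767, listed as RP4-710M16.2) was at 0 counts in all 6 Ctrl libraries, which allows up to 3 counts in each, at 585 to 608 CPM (counts scaled to the library size) in CRLM1_NC and at 48.7 to 49.8 CPM in Antisense_NC. It is not stated whether reads were counted by strand, so CRLM1 and its antisense transcript cannot be told apart in that gene. HNRNPK stood at 462 to 479.7 CPM in Ctrl_NC and at 626, 656 and 490.0 CPM in Ctrl_hnRNPK. It stood at 454 to 461 CPM in CRLM1_NC and at 677, 717 and 581 CPM in CRLM1_hnRNPK, and at 419 to 431 CPM in Antisense_NC against 532 to 573 CPM in Antisense_hnRNPK. Library 3 of Ctrl_hnRNPK and of CRLM1_hnRNPK thus had the lowest HNRNPK of the group, and the study left them out because of how their profiles looked. They are kept here, and results that rest on them are given with and without them. All 7 epithelial markers (EPCAM, CDH1, KRT8, KRT18, KRT19, CLDN4 and ELF3) reached 1 CPM, with summed group means of 3970 to 9010 CPM. None of the 4 leukocyte, 2 endothelial or 2 hepatocyte markers reached 1 CPM in any library, and of 5 fibroblast markers only COL1A1 did. Since the samples are bulk RNA, fewer cells expressing a gene and less RNA per cell cannot be told apart.

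Promoter sequences from RefSeq (GRCh38.p14) were found for 9 of the 10 genes, all but BMP7. The 250 bases before the start were searched on both strands for GTCT, the SMAD box, for its palindromic pair GTCTAGAC, which contains that box on each strand, for the GC-rich SMAD motif GGCGCC, and for CCCTCCCC, a repeat like the CT element to which hnRNPK is known to bind. GTCT was in 77.5% of 34788 promoters and GGCGCC in 16.4%. CCCTCCCC was in 12.7%, while GTCTAGAC was in 62 promoters (0.178%). The 3 sequences below are shown because SMAD6 had the largest fold change between the stable backgrounds, BAMBI held GGCGCC 3 times, and the outermost of 3 SMAD7 starts held the CT repeat. The BAMBI stretch had a GC content of 81.2%, beside a median of 58.0% over all promoters of this length. The 16.4% above counts promoters with any match to GGCGCC, so it is no measure of how rare 3 matches are. Capitals mark GTCTAGAC in SMAD6, GGCGCC in BAMBI and CCCTCCCC in SMAD7, all written 5′ to 3′ on the strand of the gene.
SMAD6, chr15:66701986-66702235, plus strand: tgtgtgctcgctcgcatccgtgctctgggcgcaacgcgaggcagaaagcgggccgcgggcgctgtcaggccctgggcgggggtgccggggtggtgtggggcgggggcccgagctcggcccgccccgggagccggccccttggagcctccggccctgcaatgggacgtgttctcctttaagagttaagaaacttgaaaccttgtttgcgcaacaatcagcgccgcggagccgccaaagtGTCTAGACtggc
BAMBI, chr10:28677271-28677520, plus strand: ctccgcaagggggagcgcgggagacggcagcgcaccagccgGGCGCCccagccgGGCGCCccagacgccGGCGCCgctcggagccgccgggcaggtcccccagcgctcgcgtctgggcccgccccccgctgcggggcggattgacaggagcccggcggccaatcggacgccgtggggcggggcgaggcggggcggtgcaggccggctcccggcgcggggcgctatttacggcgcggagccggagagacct
SMAD7, chr18:48950966-48951215, minus strand: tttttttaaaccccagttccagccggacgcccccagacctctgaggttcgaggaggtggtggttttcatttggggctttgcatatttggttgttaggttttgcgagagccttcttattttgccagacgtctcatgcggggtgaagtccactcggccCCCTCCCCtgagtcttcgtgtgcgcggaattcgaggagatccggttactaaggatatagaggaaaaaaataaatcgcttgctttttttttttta
Of the other genes, BMP4 had 1 of 3 starts with GGCGCC and another with the CT repeat on the opposite strand, and ID1, ID2, ID3, SMURF1 and SMURF2 held the SMAD box but none of the 3 longer motifs. A match is a description of letters, and no binding was measured in these libraries.

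Levels of different genes are compared per length, as fragments scaled by exon length and by the reads mapped (FPKM). ID1, which encodes an inhibitor of basic helix-loop-helix transcription factors, was the highest of the 10 in all 6 groups, at 379 ± 11.7 FPKM in Ctrl_NC (SD, n = 3). ID3, of the same family, followed at 78.8 ± 2.48 FPKM in Ctrl_NC, while the third relative ID2 stood at 4.47 ± 0.226 FPKM. SMURF2 was at 17.4 ± 0.821 FPKM and SMURF1 at 9.67 ± 0.151 FPKM in Ctrl_NC. The ligands, BAMBI and SMAD7 lay between 2.12 and 3.52 FPKM there, and the libraries of BAMBI and SMAD7 overlapped. SMAD6 was the lowest in every group, at 0.887 ± 0.121 FPKM in Ctrl_NC and 0.200 ± 0.0954 FPKM in CRLM1_hnRNPK. The order of the first 4, ID1, ID3, SMURF2 and SMURF1, was the same in 5 groups with no overlap between ID3 and SMURF2. In Antisense_hnRNPK, SMURF2 (90.9 ± 9.06 FPKM) stood above ID3 (34.3 ± 7.96 FPKM), again with no overlap.

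**Figure D1:**
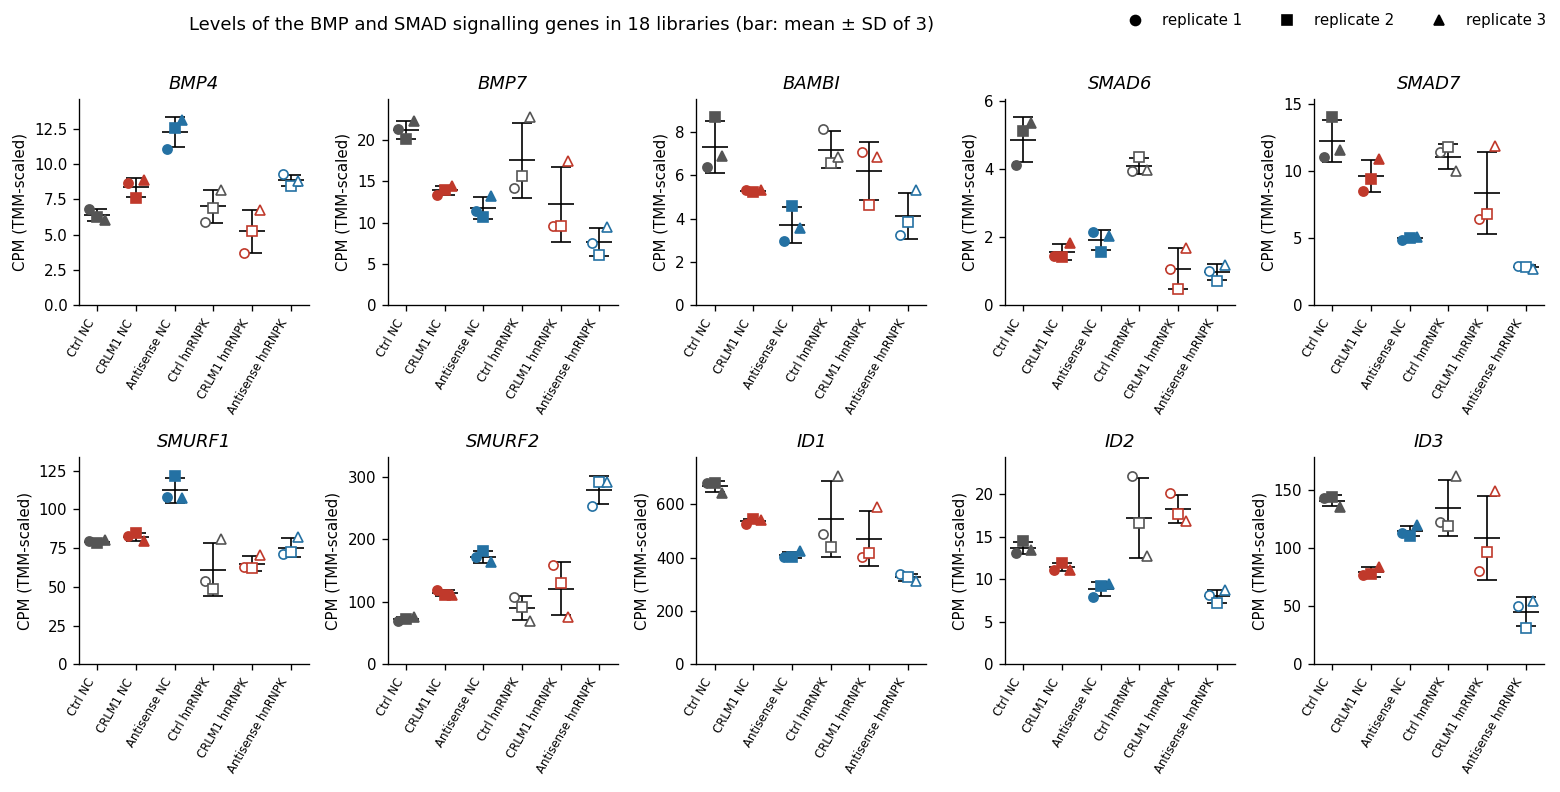
CPM of each gene (vertical axis, CPM scaled by TMM) in the 6 groups, one symbol per library, filled for NC and open for hnRNPK, with bars for the mean ± SD of 3. The 3 Ctrl_NC libraries of SMAD6 sit between 4.13 and 5.35 CPM, above every CRLM1 and Antisense library.

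The first question was how the genes differed between CRLM1_NC and Ctrl_NC, that is, with stable CRLM1 and no hnRNPK construct. SMAD6 fell 3.17-fold and ID3 fell 1.79-fold, while SMURF2 rose 1.55-fold. Of the 10 genes, 9 passed an adjusted p of 0.05, 7 lower and 2 higher. Over all 14459 genes tested, 34.3% passed, 17.4% lower and 16.9% higher. At 2-fold or more, SMAD6 alone passed, against 1.58% of all genes. The median log2 fold change of the 10 was -0.347, beside 0.00593 over all genes. SMAD6, BMP7 and SMURF2 had been singled out by the study on these same libraries, so their direction is not independent evidence. In the Antisense_NC libraries all 10 genes differed from Ctrl_NC, 7 lower and 3 higher, where 66.5% of all genes passed (32.2% lower and 34.4% higher). At 2-fold or more, 4 of them passed (BAMBI, SMAD6, SMAD7 and SMURF2), against 14.1% of all genes. CRLM1_NC against Antisense_NC gave 5 genes higher and 4 lower, where 56.4% of all genes passed (26.9% higher and 29.5% lower). None of the 10 reached 2-fold there, against 7.18% of all genes. The 3 comparisons share their libraries in pairs, so each gives its own values and no agreement between them is counted.

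The ligands moved in opposite directions. BMP4, a ligand that binds BMP type I receptors (ENSG00000125378.15, chr14:53949736-53958761, minus strand, GRCh38 as in all positions of genes here), stood at 6.82, 6.28 and 6.02 CPM in Ctrl_NC, at 8.63, 7.58 and 8.84 CPM in CRLM1_NC and at 11.1, 12.6 and 13.1 CPM in Antisense_NC. The groups were separate, and BMP4 was 1.30-fold higher in CRLM1_NC (edgeR, adjusted p = 0.0389, past the threshold under 8 of 15 alternatives) and 1.88-fold higher in Antisense_NC (edgeR, adjusted p = 9.15e-08). BMP7, a ligand of another BMP subgroup (ENSG00000101144.12, chr20:57168753-57266641, minus strand), stood at 21.3, 20.1 and 22.2 CPM in Ctrl_NC, at 13.3, 14.0 and 14.4 CPM in CRLM1_NC and at 11.5, 10.7 and 13.2 CPM in Antisense_NC. It was 1.54-fold lower in CRLM1_NC (edgeR, adjusted p = 1.64e-06) and 1.85-fold lower in Antisense_NC (edgeR, adjusted p = 1.09e-09). CRLM1_NC lay 1.20-fold above Antisense_NC (edgeR, adjusted p = 0.0404, past the threshold under 4 of 15 alternatives). BAMBI, the decoy receptor (ENSG00000095739.10, chr10:28677510-28682932, plus strand), stood at 6.38, 8.68 and 6.91 CPM in Ctrl_NC, at 5.30, 5.22 and 5.34 CPM in CRLM1_NC and at 2.96, 4.57 and 3.59 CPM in Antisense_NC. It was 1.41-fold lower in CRLM1_NC (edgeR, adjusted p = 0.0133) and 2.03-fold lower in Antisense_NC (edgeR, adjusted p = 2.94e-06).

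Among the inhibitory SMADs, SMAD6, which mainly restrains BMP receptors and their SMADs (ENSG00000137834.14, chr15:66702236-66782849, plus strand), stood at 4.13, 5.12 and 5.35 CPM in Ctrl_NC, at 1.44, 1.41 and 1.83 CPM in CRLM1_NC and at 2.15, 1.58 and 2.02 CPM in Antisense_NC. Every library of both other backgrounds lay below every Ctrl_NC library, and CRLM1_NC and Antisense_NC overlapped. The log2 fold change was -1.67 ± 0.23 (SE) for CRLM1_NC against Ctrl_NC (edgeR quasi-likelihood test, adjusted p = 1.63e-07) and -1.39 ± 0.21 for Antisense_NC against Ctrl_NC (edgeR, adjusted p = 3.03e-07). CRLM1_NC against Antisense_NC gave -0.28 ± 0.28 (edgeR, adjusted p = 0.418). SMAD6 was thus lower than Ctrl_NC in both backgrounds that carried an insert. Both falls use the same Ctrl_NC libraries, so they are not separate observations, and the insert was not tested apart from differences between stable lines. A difference between CRLM1 and its antisense was not detectable at 31 to 50 reads per library. SMAD7, which restrains both BMP and TGF-beta receptors (ENSG00000101665.8, chr18:48919853-48950965, minus strand), stood at 11.1, 14.0 and 11.6 CPM in Ctrl_NC, at 8.54, 9.44 and 10.9 CPM in CRLM1_NC and at 4.89, 5.03 and 5.11 CPM in Antisense_NC. The 3 groups did not overlap, and Antisense_NC was the lowest. SMAD7 was 1.29-fold lower in CRLM1_NC than in Ctrl_NC (edgeR, adjusted p = 0.0207, past the threshold under 9 of 15 alternatives) and 2.51-fold lower in Antisense_NC (edgeR, adjusted p = 7.71e-11). It was 1.95-fold higher in CRLM1_NC than in Antisense_NC (edgeR, adjusted p = 5e-07).

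The ubiquitin ligases did not move alike. SMURF2 (ENSG00000108854.15, chr17:64542282-64662307, minus strand) stood at 68.7, 73.2 and 75.4 CPM in Ctrl_NC, at 119, 111 and 110.2 CPM in CRLM1_NC and at 171, 182 and 163 CPM in Antisense_NC. The groups were separate, with Antisense_NC the highest. The log2 fold change against Ctrl_NC was 0.63 ± 0.05 in CRLM1_NC (edgeR, adjusted p = 6.81e-14) and 1.21 ± 0.05 in Antisense_NC (edgeR, adjusted p = 8.6e-23). CRLM1_NC lay 1.49-fold below Antisense_NC (edgeR, adjusted p = 1.09e-13). SMURF1, its close relative (ENSG00000198742.9, chr7:99027440-99144108, minus strand), stood at 79.6, 78.1 and 80.1 CPM in Ctrl_NC, at 82.7, 84.6 and 79.5 CPM in CRLM1_NC and at 108, 121 and 107 CPM in Antisense_NC. Ctrl_NC and CRLM1_NC overlapped, with a log2 difference of 0.04 ± 0.05 (edgeR, adjusted p = 0.575), and Antisense_NC was 1.38-fold above Ctrl_NC (edgeR, adjusted p = 1.93e-10). Genes on the opposite strand overlap both (CEP95 at SMURF2, TRRAP at SMURF1), so part of their reads may be uncertain, as for BMP4, BMP7 and ID2, which have antisense or opposite-strand neighbours. SMAD6 overlaps a gene on its own strand (ENSG00000274995), so part of its reads may be uncertain as well.

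The ID target genes were lower than in Ctrl_NC in both other backgrounds, in a different order. ID1 (ENSG00000125968.8, chr20:31605283-31606515, plus strand) stood at 678, 680.4 and 642 CPM in Ctrl_NC, at 527, 544 and 539 CPM in CRLM1_NC and at 403, 403 and 424 CPM in Antisense_NC. The groups were separate, and ID1 was 1.25-fold lower in CRLM1_NC (edgeR, adjusted p = 1.94e-11) and 1.67-fold lower in Antisense_NC (edgeR, adjusted p = 1.14e-20). ID3 (ENSG00000117318.8, chr1:23557926-23559501, minus strand) stood at 143, 144 and 135 CPM in Ctrl_NC, at 76.5, 77.6 and 83.9 CPM in CRLM1_NC and at 113, 111 and 119.5 CPM in Antisense_NC. Here CRLM1_NC was the lowest group, 1.79-fold below Ctrl_NC (edgeR, adjusted p = 2.91e-18) and 1.42-fold below Antisense_NC (edgeR, adjusted p = 4.5e-11). ID3 in Antisense_NC was 1.26-fold below Ctrl_NC (edgeR, adjusted p = 2.19e-08), a difference of -0.05 ± 0.04 on the log2 scale (adjusted p = 0.26) once a trend on GC content and length was removed. ID2 (ENSG00000115738.9, chr2:8678845-8684461, plus strand) stood at 13.1, 14.5 and 13.5 CPM in Ctrl_NC, at 11.1, 11.9 and 11.1 CPM in CRLM1_NC and at 7.85, 9.18 and 9.47 CPM in Antisense_NC. It was 1.22-fold lower in CRLM1_NC than in Ctrl_NC, close to the threshold (edgeR, adjusted p = 0.0451) and past it under 2 of 15 alternative analyses. In Antisense_NC it was 1.59-fold lower than in Ctrl_NC (edgeR, adjusted p = 4.81e-06).

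Fitting all 18 libraries together, so that all groups share one estimate of the spread, left 1 of the 9 genes past the threshold for CRLM1_NC against Ctrl_NC (SMAD6) and 1 for CRLM1_NC against Antisense_NC (SMAD7). Without Ctrl_NC replicate 2, 5 genes passed for CRLM1_NC against Ctrl_NC (BMP7, SMAD6, SMURF2, ID1 and ID3). The share of all genes that passed in these fits is not given here, so the counts do not show a change particular to these genes. Spearman's rho of the log2 fold change with transcript GC content over genes was -0.161 for CRLM1_NC against Ctrl_NC, -0.301 for Antisense_NC against Ctrl_NC and 0.288 for CRLM1_NC against Antisense_NC, and its part in these differences was tested only by the trend removal.

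**Figure D2:**
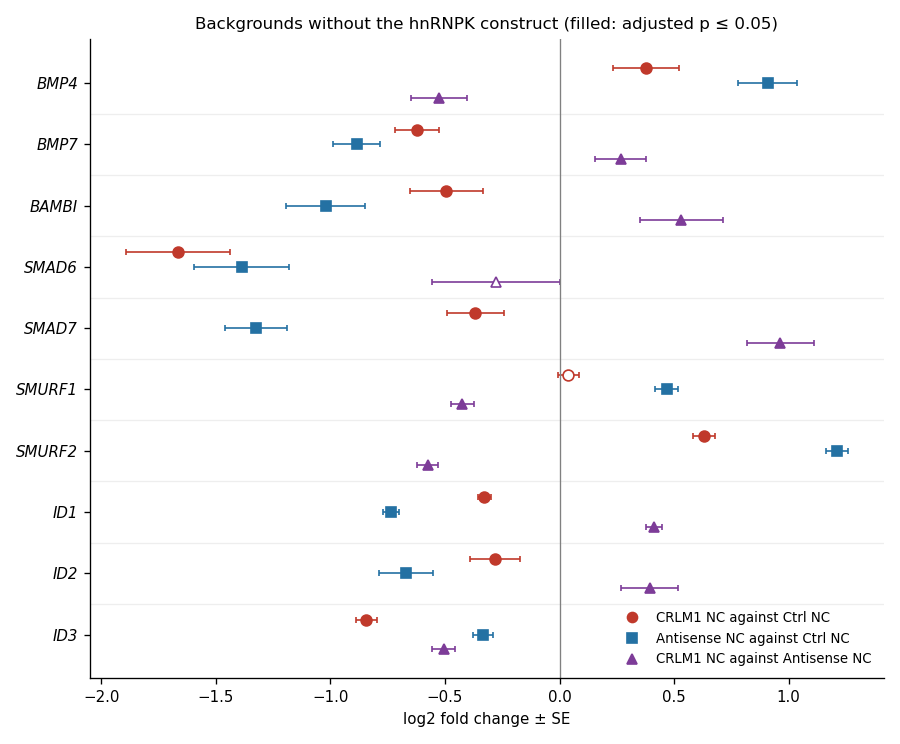
Log2 fold change ± SE (horizontal axis) of the 10 genes in the 3 comparisons of NC groups, filled where the adjusted p was at most 0.05. SMURF2 and BMP4 lie to the right of 0 against Ctrl_NC in both other backgrounds, and SMAD6 lies farthest left at -1.67 for CRLM1_NC.

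The second question was what the hnRNPK construct changed within each background. In the Antisense background 8 of the 10 genes passed, 7 lower and SMURF2 higher, where 63.9% of all genes passed (30.5% lower and 33.4% higher). The median log2 fold change of the 10 was -0.529, beside 0.0405 over all genes. Only ID3 was 2-fold lower or more, against 13.4% of all genes called at 2-fold. ID3 stood at 113, 111 and 119.5 CPM in Antisense_NC and at 50.4, 31.5 and 54.3 CPM in Antisense_hnRNPK. The groups were well apart, with a log2 fold change of -1.34 ± 0.16 (edgeR, adjusted p = 3.26e-05). SMURF2 went from 163 to 182 CPM up to 253, 291 and 291 CPM, 1.61-fold higher (edgeR, adjusted p = 5.52e-06). This was its highest level in any group. SMURF1 moved the other way, to 71.2, 72.8 and 82.2 CPM, 1.50-fold lower (edgeR, adjusted p = 3.03e-05).

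In the same comparison SMAD7 stood at 2.96, 2.89 and 2.72 CPM in Antisense_hnRNPK, its lowest level in any group, 1.76-fold below Antisense_NC (edgeR, adjusted p = 0.000836). SMAD6 stood at 1.01, 0.714 and 1.19 CPM, or 22 to 31 reads, 1.99-fold below Antisense_NC (edgeR, adjusted p = 0.00878). BMP7 was at 7.49, 6.07 and 9.42 CPM and was 1.55-fold lower (edgeR, adjusted p = 0.00323), and BMP4 was at 9.29, 8.47 and 8.77 CPM and was 1.39-fold lower (edgeR, adjusted p = 0.0043). ID1 at 337, 328 and 313 CPM was 1.26-fold lower (edgeR, adjusted p = 0.00142). BAMBI (3.26, 3.83 and 5.32 CPM) and ID2 (8.13, 7.17 and 8.69 CPM) overlapped their NC libraries, with adjusted p of 0.59 and 0.363.

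The hnRNPK effects moved with the GC content of genes. Across the 98.9% of 14501 genes of the Antisense comparison that had a value, which share their libraries, Spearman's rho of the log2 fold change with transcript GC content was -0.712. SMURF2, the one gene that rose, had the lowest GC content of the 10 at 41.7%, and the 7 that fell ranged from 51.9% (SMURF1) to 58.9% (SMAD6). BAMBI (51.0%) lay just below that range and ID2 (53.3%) within it, and neither of them passed. With each library's trend on GC content and length removed, 2 of the 10 passed (SMURF1 and ID3), where 39.1% of all genes passed. ID3 was then 1.90-fold lower (edgeR, adjusted p = 0.00243) and SMURF1 1.33-fold lower (edgeR, adjusted p = 0.0024). SMURF2 went to a log2 fold change of 0.15 ± 0.08 and ID1 to 0.12 ± 0.08, which was opposite in sign to its value before. The part of GC content in these results was not tested beyond this.

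**Figure D3:**
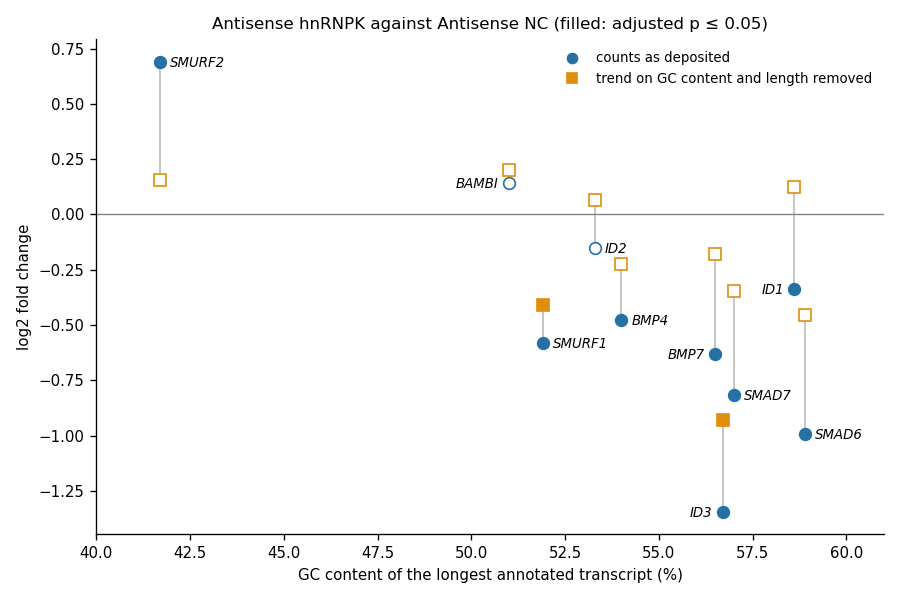
Log2 fold change for Antisense_hnRNPK against Antisense_NC (vertical axis) against GC content of the longest annotated transcript in percent (horizontal axis), as circles from the counts as deposited and as squares once the GC and length trend was taken out, filled where the adjusted p was at most 0.05. SMURF1 and ID3 are the filled squares.

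In the Ctrl background none of the 10 genes passed with all libraries, and neither did any gene of the table (0%). At an unadjusted p under 0.05, edgeR gave 0 of the 10 and 2246 of 14607 genes. DESeq2 called 0 of the 10, with its share of all genes not given here. The third Ctrl_hnRNPK library stood apart from the other two in most of these genes. ID1 was at 489, 439 and 705 CPM, beside 642 to 680.4 CPM in Ctrl_NC. SMURF1 was at 53.9, 48.8 and 81.0 CPM, beside 78.1 to 80.1 CPM in Ctrl_NC. SMURF2 was at 108, 91.9 and 69.2 CPM, beside 68.7 to 75.4 CPM in Ctrl_NC. In all 3 genes the third library was nearest to Ctrl_NC, as it was for HNRNPK. BMP7 (14.2, 15.7 and 22.7 CPM) and ID2 (22.1, 16.6 and 12.8 CPM) had the same form, while ID3 (122, 119 and 162 CPM) lay above Ctrl_NC in the third library and below it in the others.

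Without that library 6 genes passed, 4 lower and 2 higher, where 59.6% of all genes passed (29.9% lower and 29.6% higher). SMURF1 was then 1.55-fold lower (edgeR, adjusted p = 1.99e-06), ID1 1.44-fold lower (edgeR, adjusted p = 8.51e-07) and BMP7 1.42-fold lower (edgeR, adjusted p = 0.000868). SMURF2 was 1.38-fold higher (edgeR, adjusted p = 8.57e-05) and ID2 1.41-fold higher (edgeR, adjusted p = 0.00409). SMAD6 (3.94, 4.37 and 3.97 CPM), SMAD7 (11.4, 11.8 and 10.0 CPM), BMP4 (5.92, 6.88 and 8.19 CPM) and BAMBI (8.15, 6.59 and 6.84 CPM) passed neither with that library nor without it. With the GC and length trend removed as well, 2 passed (SMURF1 lower and ID2 higher), where 27.0% of all genes passed. Spearman's rho of the log2 fold change with GC content was -0.74 without that library, over the genes with a value.

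In the CRLM1 background none of the 10 passed with all libraries, nor did any gene of the table. At an unadjusted p under 0.05, edgeR gave 2 of the 10 and 1332 of 14394 genes. DESeq2 called 0 of the 10, with its share of all genes not given here. BMP4 stood at 3.74, 5.24 and 6.76 CPM against 7.58 to 8.84 CPM in CRLM1_NC, and ID2 at 20.1, 17.7 and 16.9 CPM against 11.1 to 11.9 CPM. Neither overlapped its NC group, and SMURF1 (62.9, 62.0 and 70.4 CPM) also lay below CRLM1_NC (79.5 to 84.6 CPM). None of these 3 passed, and the share of all genes without overlap is not given here. The separation is therefore no result about these genes. In SMURF2 (158, 130.1 and 75.0 CPM), ID1 (403, 419 and 591 CPM) and SMAD7 (6.46, 6.77 and 11.8 CPM) the third library was on the other side of CRLM1_NC from the first 2.

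Without the third CRLM1_hnRNPK library 9 genes passed, all but BAMBI, 6 lower and 3 higher, where 58.5% of all genes passed (29.1% lower and 29.5% higher). BMP4 was then 1.82-fold lower (edgeR, adjusted p = 0.000203), SMAD6 1.93-fold lower (edgeR, adjusted p = 0.0459, from 23 and 10 reads in the 2 libraries left) and ID2 1.70-fold higher (edgeR, adjusted p = 2.62e-06). ID3 (80.0, 97.0 and 149.5 CPM against 76.5 to 83.9 CPM) was 1.14-fold higher (edgeR, adjusted p = 0.0212). With the GC and length trend removed as well, 4 passed, BMP4 and SMURF1 lower and ID2 and ID3 higher, where 27.0% of all genes passed. ID2 was then 2.01-fold higher. Spearman's rho of the log2 fold change with GC content was -0.759 without that library, over the genes with a value.

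**Figure D4:**
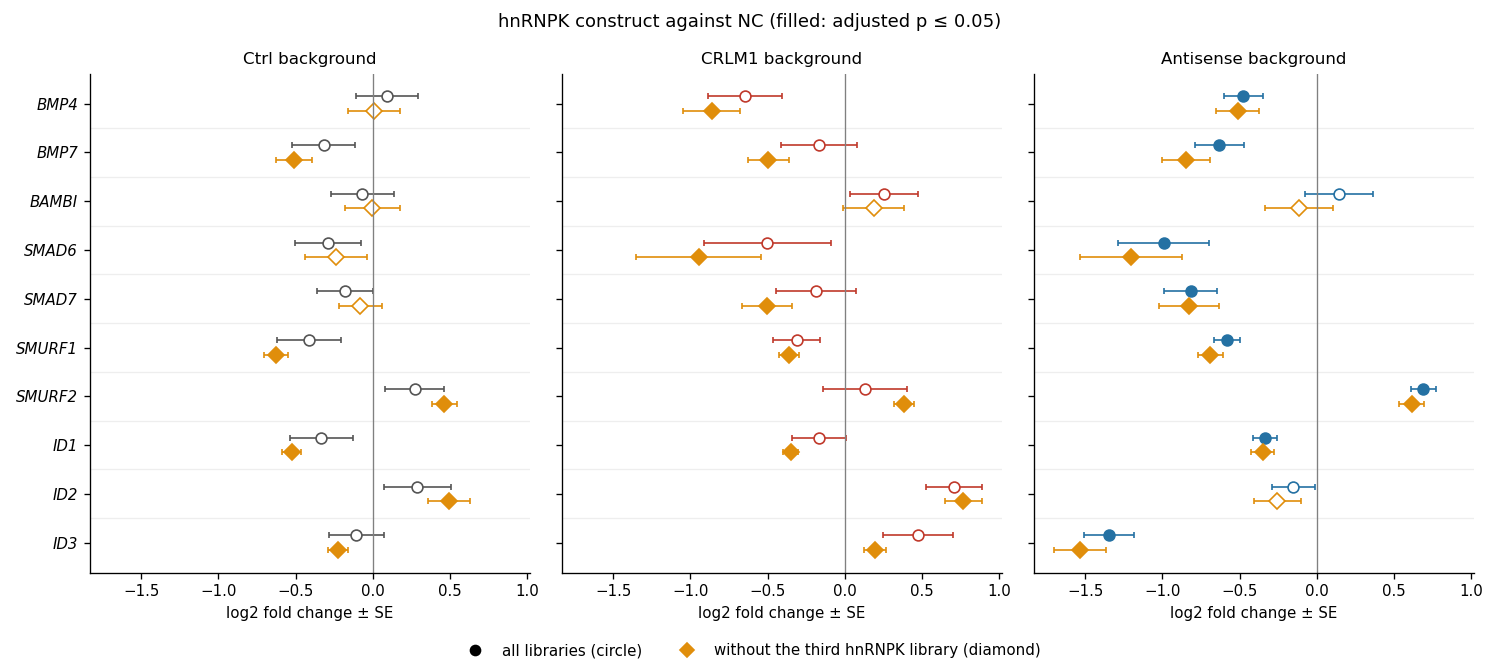
Log2 fold change ± SE (horizontal axis) for hnRNPK against NC in the 3 backgrounds, circles for all libraries and diamonds without the third hnRNPK library, filled where the adjusted p was at most 0.05. In the Ctrl and CRLM1 backgrounds every circle is open, and 6 and 9 diamonds are filled.

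With the hnRNPK construct in both, CRLM1_hnRNPK against Ctrl_hnRNPK gave 0 of the 10 genes past the threshold, where 0.0137% of all genes passed. At an unadjusted p under 0.05, edgeR gave 1 of the 10 and 435 of 14641 genes. DESeq2 called 1 of the 10, SMAD6. Its share of all genes is not given here, so that call cannot be set against the edgeR share. SMAD6 stood at 1.06, 0.494 and 1.68 CPM in CRLM1_hnRNPK against 3.94, 4.37 and 3.97 CPM in Ctrl_hnRNPK. The groups did not overlap, at 3.75-fold, and the share of all genes without overlap is not given here. In these 6 libraries the deviations of same-numbered libraries from their group means were correlated (r = 0.622, 0.506 and 0.759 over 15668 genes). The study left out library 3 of both groups because of its profile, and deviations within a group cancel out. A shift of library 3 shared by both groups would therefore give positive correlations for the other numbers too. Pairing by number was not tested apart from this shift, so the block results below are given as an alternative fit only. With the replicate block 3 genes passed, where 6.99% of all genes passed: SMAD6 (3.91-fold lower, adjusted p = 0.00337), BMP7 (1.45-fold lower, adjusted p = 0.0344) and SMURF2 (1.32-fold higher, adjusted p = 0.032). Without the third libraries 5 genes passed, where 16.5% of all genes passed. SMURF2 was higher (8.88% of all genes) and SMAD6, SMAD7, BMP7 and ID3 were lower (7.65%). SMAD6 was then 5.26-fold lower (edgeR, adjusted p = 4.98e-05).

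Whether the hnRNPK effect differed between backgrounds was tested by interaction terms. Between the CRLM1 and Antisense backgrounds 1 of the 10 differed, ID3, where 1.12% of all genes passed. Its difference was 1.81 ± 0.31 on the log2 scale (edgeR, adjusted p = 0.027), that is, 3.50-fold. ID3 was lower with hnRNPK in all 3 Antisense_hnRNPK libraries, while in CRLM1_hnRNPK 2 of 3 libraries lay above CRLM1_NC. The difference was 1.54 ± 0.22 with the GC and length trend removed (edgeR, adjusted p = 0.000865) and 1.69 ± 0.24 without the third hnRNPK libraries (edgeR, adjusted p = 0.000595). Leaving out 1 library at a time, its call was lost for each of the NC libraries and for Antisense_hnRNPK replicates 1 and 2, with an adjusted p of up to 0.0982 over all alternatives. ID2 gave 0.85 ± 0.22 (edgeR, adjusted p = 0.065). Between the CRLM1 and Ctrl backgrounds, and between Antisense and Ctrl, 0 of the 10 and 0% of all genes passed. At an unadjusted p under 0.05 edgeR gave 1 of the 10 and 221 of 15188 genes in the former and 4 of the 10 and 2179 of 15346 genes in the latter. DESeq2 called 0 of the 10 in the former and 1 (ID3) in the latter, with its share of all genes not given here. ID3 came to 0.55 ± 0.29 in the former and to -1.26 ± 0.25 in the latter (edgeR, adjusted p = 0.1). Without the third hnRNPK libraries, ID3 passed between CRLM1 and Ctrl (0.45 ± 0.10, edgeR, adjusted p = 0.0131), where 3.45% of all genes passed. SMAD7, ID2 and ID3 passed between Antisense and Ctrl, where 16% of all genes passed, with ID3 at -1.27 ± 0.17 (edgeR, adjusted p = 0.000109). SMURF1, ID2 and ID3 passed between CRLM1 and Antisense, where 26.5% of all genes passed.

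Other genes of BMP and TGF-beta signalling were taken from a list of 91, of which 79 were in the count table. For CRLM1_NC against Ctrl_NC 59 were tested, 9 were higher, 12 lower and 38 did not pass, so that 35.6% passed beside 34.3% of all genes. For Antisense_NC against Ctrl_NC 57 were tested, 22 were higher, 20 lower and 15 did not pass, or 73.7% past beside 66.5% of all genes. By role, 1 of 8 ligands was higher and 3 were lower, 0 of 8 secreted antagonists and binding proteins were higher and 7 lower, and 7 of 14 receptors and co-receptors were higher and 1 lower. Of the 6 receptor-regulated or common SMADs 2 were higher and 1 lower, of the 15 intracellular regulators 11 were higher and 3 lower, and of the 6 target genes 1 was higher and 5 were lower. Over all genes of that comparison 34.4% were higher and 32.2% lower. For CRLM1_NC against Antisense_NC 58 were tested, 22 were higher, 20 lower and 16 did not pass, or 72.4% past beside 56.4% of all genes. These are the same Antisense_NC libraries, so the counts by role are not separate observations. There 3 of 8 ligands, 7 of 8 secreted antagonists, 2 of 14 receptors, 1 of 6 SMADs, 3 of 15 intracellular regulators and 6 of 7 target genes were higher, beside 26.9% of all genes. Lower were 1, 0, 7, 2, 10 and 0 of these in turn, beside 29.5% of all genes. The medians over the list were 0.00369, 0.0485 and -0.0264 on the log2 scale in these 3 comparisons, beside 0.00593, -0.00246 and -0.00338 over all genes. With hnRNPK in the Antisense background 57 were tested, 15 were higher, 25 lower and 17 did not pass, or 70.2% past beside 63.9% of all genes (33.4% higher and 30.5% lower). The median over the list was -0.213, beside 0.0405 over all genes. With the GC and length trend removed, 3 of those 57 were higher and 23 lower (45.6% past), beside 39.1% of all genes (16.9% higher and 22.2% lower).

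**Figure D5:**
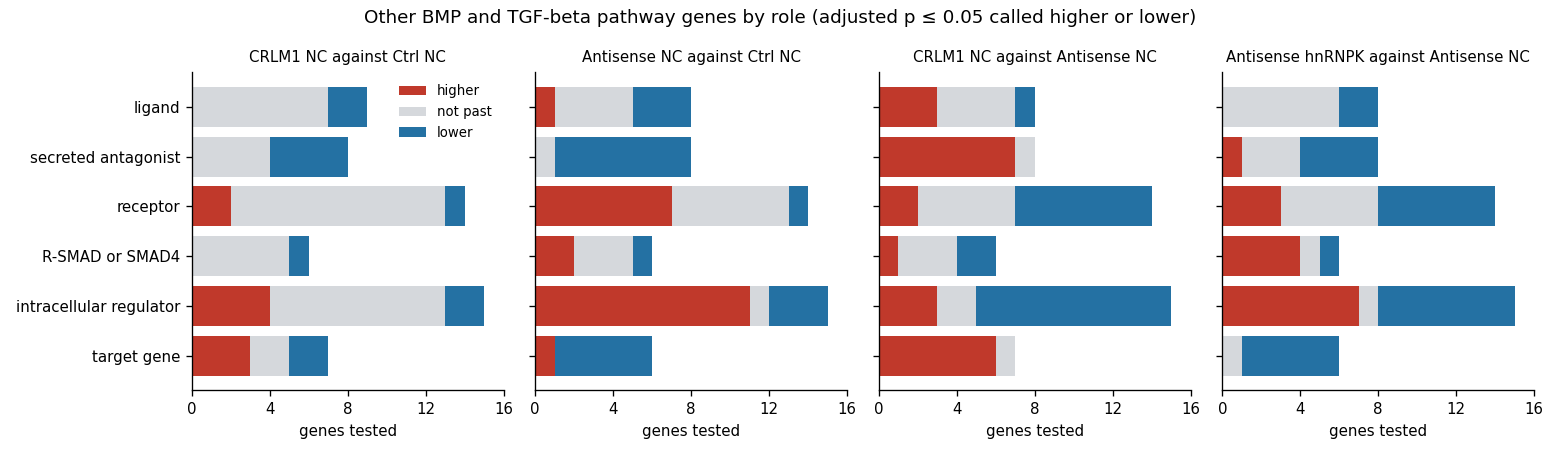
Number of tested pathway genes (horizontal axis) that were higher, lower or not past an adjusted p of 0.05 in each of 6 roles, for 4 comparisons. For CRLM1 NC against Ctrl NC 38 of 59 genes did not pass, and for Antisense hnRNPK against Antisense NC 17 of 57 did not.

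The genes of that list with the largest changes were named by size. PMEPA1, an inhibitor of TGF-beta signalling that binds SMADs, stood at 8.91, 7.52 and 6.37 CPM in Ctrl_NC, at 11.9, 14.7 and 13.9 CPM in CRLM1_NC and at 2.23, 2.99 and 3.29 CPM in Antisense_NC. It was thus 1.77-fold higher in CRLM1_NC (edgeR, adjusted p = 3.26e-06) and 2.74-fold lower in Antisense_NC (edgeR, adjusted p = 5.35e-09). RUNX2, a bone transcription factor downstream of BMP, had the same form, 2.08-fold higher in CRLM1_NC (edgeR, adjusted p = 8.96e-09) and 2.97-fold lower in Antisense_NC (edgeR, adjusted p = 2.19e-09). CTGF, a matricellular target of TGF-beta, was lower than in Ctrl_NC (63.8 ± 2.66 CPM, SD, n = 3) in CRLM1_NC (46.8 ± 0.979 CPM) and lower still in Antisense_NC (12.4 ± 0.305 CPM), with adjusted p of 1.8e-08 and 6.04e-26 against Ctrl_NC. TGFBI, a secreted target of TGF-beta, had 11, 27 and 30 reads in CRLM1_NC against 1, 0 and 0 in Ctrl_NC and 0 in all 3 Antisense_NC libraries. SMAD1, a receptor-regulated SMAD of the BMP branch, was 2.16-fold higher in Antisense_NC than in Ctrl_NC (edgeR, adjusted p = 4.41e-06).

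With hnRNPK in the Antisense background, the largest changes of the list were falls of RGMA, a BMP co-receptor (3.18-fold, adjusted p = 1.47e-05), PMEPA1 (2.79-fold, adjusted p = 0.00016), the ligand gene TGFB1 (2.73-fold, adjusted p = 8.71e-08) and NBL1, a secreted BMP antagonist (2.63-fold, adjusted p = 2.78e-07). TGFB1 went from 177 ± 5.57 CPM to 65.4 ± 7.61 CPM (SD, n = 3). With the GC and length trend removed, RGMA was still among the 4 largest changes, 2.34-fold lower (edgeR, adjusted p = 0.00114). It was also lower without the third hnRNPK library in the Ctrl background (2.61-fold, edgeR, adjusted p = 2.95e-05) and in the CRLM1 background (2.24-fold, edgeR, adjusted p = 0.000106). The other named genes there were LTBP3, which binds latent TGF-beta (2.06-fold lower), BMP8A, a BMP ligand (2.92-fold lower), and ACVR1C, a type I receptor (2.39-fold higher), in the Ctrl background. In the CRLM1 background they were PMEPA1 (2.34-fold lower), the transcription factor GATA2 (1.96-fold lower) and SMAD9 of the BMP branch (2.00-fold higher). All 8 had an adjusted p of at most 0.0234 (edgeR). BMP8A had 9 and 7 reads in Ctrl_hnRNPK replicates 1 and 2, against 26, 29 and 10 in Ctrl_NC. With the GC and length trend removed as well, 0 of 14 receptors and co-receptors were higher in the Ctrl background. In the CRLM1 background 0 of 6 receptor-regulated or common SMADs were higher in that fit. ACVR1C and SMAD9 thus no longer passed as higher. Without the third hnRNPK libraries 58 genes of the list were tested in the Ctrl background. Of these 19 were higher and 21 lower, or 69% past beside 59.6% of all genes. In the CRLM1 background 60 were tested, 15 higher and 22 lower, or 61.7% past beside 58.5% of all genes. With the GC and length trend removed as well, 3 of the 58 were higher and 18 lower (36.2% past, beside 27.0% of all genes). Of the 60, 4 were then higher and 18 lower (36.7% past, beside 27.0% of all genes).

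The genes whose levels ran most like ID1 over the 18 libraries, among 12962 genes, were CCDC85B (Pearson's r = 0.989 of log2 CPM, Spearman's rho = 0.992), FBXO2 (r = 0.984) and ACADVL (r = 0.983). For SMAD6 they were PTGS1 (r = 0.965), ADAM19 (r = 0.932) and RP11-247A12.8 (r = 0.926). The libraries share 6 groups and the values are a description without a test.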

How the data were processed

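RNA of HCT116 cells was sequenced in 18 libraries as paired ends of 151 nt (KAPA RNA HyperPrep). The authors trimmed reads with FASTX-Toolkit, aligned them with TopHat2 to GRCh38 with Gencode version 23, allowing 4 mismatches, and counted uniquely mapped reads per gene. The deposited count table holds these counts without normalization, and the deposited FPKM values were divided by the authors by exon length and mapped reads. The unique alignment lowers counts of genes with near-identical copies. The labels give pTSB as the vector of the HNRNPK construct, while the methods of the paper name a pCDNA plasmid for it.

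Counts were tested in R 4.3.3 with edgeR 4.0.16 (TMM, filterByExpr, robust quasi-likelihood F-test, two-sided), each of 7 comparisons on its 6 libraries and each of 3 interactions on 12, and p-values were adjusted by Benjamini-Hochberg over every gene that entered the fit. CPM was scaled by TMM over all 18 libraries. FPKM served to compare levels between genes. Alternatives were RLE size factors, DESeq2 1.42.0, no filter, a replicate block, a single fit of all libraries, removal of each library's trend on GC content (spline of 6 degrees of freedom) and length (4), limma-trend (limma 3.58.1) on log2(FPKM + 0.1) and log2(FPKM + 1), and leaving out each library or the third hnRNPK libraries. The scripts were tested on simulated counts. The members and gene lists were chosen with earlier results of these data known.

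Replicate numbers were checked for pairing by correlating the deviations of same-numbered libraries from their group means. Every pair exceeded 0.1 in CRLM1_hnRNPK against Ctrl_hnRNPK alone. The labels give no pairing there, and a shift of library 3 shared by both groups could give the same correlations. Pathway genes were named as the 4 largest changes per comparison with an adjusted p of at most 0.05 and a mean of at least 1 CPM in either group, and for ID1 and SMAD6 the 3 genes of highest correlation. Depth limits the counts of SMAD6 above all. Coordinates and GC content were taken from Gencode version 44. Reads without molecular identifiers are not independent molecules, so a limit drawn from counts covers counting error only.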

Additional observations from a re-analysis of the deposited data

Results flagged for a closer look

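ID3 was flagged because the hnRNPK effect differed between the CRLM1 and Antisense backgrounds by the interaction term, by 1.81 on the log2 scale (edgeR, adjusted p = 0.027). ID3 was lower than Antisense_NC in 3 of 3 Antisense_hnRNPK libraries and above CRLM1_NC in 2 of 3 CRLM1_hnRNPK libraries. These were replicate 2 (97.0 CPM) and replicate 3 (149.5 CPM), the latter left out by the study, while replicate 1 (80.0 CPM) lay within the range of CRLM1_NC. The call was lost on leaving out any single NC library of this fit, or Antisense_hnRNPK replicate 1 or 2. No formal test for a single outlying library was run, since each group had 3.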

How the results depend on the processing

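Numbers below are counts of the 10 genes past an adjusted p of 0.05. The share of all genes past it moved with the settings too, so the counts are not results about these genes alone. Leaving out the third hnRNPK library took that share from 0% to 59.6% in the Ctrl background and from 0% to 58.5% in the CRLM1 background. Removing the GC and length trend took it from 63.9% to 39.1% in the Antisense background. The single fit of all 18 libraries gave 1 for CRLM1_NC against Ctrl_NC and 1 for CRLM1_NC against Antisense_NC. Leaving out 1 library at a time gave 5 to 8 and 6 to 9 for these, 10 for Antisense_NC against Ctrl_NC and 8 for Antisense_hnRNPK against Antisense_NC. It gave 0 to 6 for Ctrl_hnRNPK against Ctrl_NC and 0 to 9 for CRLM1_hnRNPK against CRLM1_NC, the highest in each without the third hnRNPK library. With the GC and length trend removed, Antisense_hnRNPK against Antisense_NC gave 2, also with the replicate block, and CRLM1_hnRNPK against CRLM1_NC gave 1 (ID3, higher). On FPKM the former gave 5 under both pseudocounts. Leaving out the third hnRNPK libraries together with the GC trend, an alternative chosen after seeing the data, gave 2, 4 and 2 in the Ctrl, CRLM1 and Antisense backgrounds. ID1 with hnRNPK in the Antisense background then reversed to 0.082 on the log2 scale (adjusted p = 0.388), and with the GC trend removed to 0.124 without (adjusted p = 0.222) and with (adjusted p = 0.372) the replicate block. The cause was not tested. CRLM1_hnRNPK against Ctrl_hnRNPK gave 1 by DESeq2, without a filter and in the single fit, 3 with the replicate block, 3 with the block and GC trend removed, 5 without the third libraries (5 with GC trend removed too) and 0 leaving out 1 library. For the difference of hnRNPK effects, CRLM1 minus Ctrl gave 1 without the third libraries, with or without the GC trend, and 0 leaving out 1 library. CRLM1 minus Antisense gave 2 by DESeq2, 2 with the GC trend removed, with or without the block, 3 without the third libraries, with or without the GC trend, and 0 to 2 leaving out 1 library, with 2 without CRLM1_hnRNPK replicate 3. Antisense minus Ctrl gave 1 by DESeq2, without a filter, with the GC trend removed, with or without the block, and on log2(FPKM + 1). It gave 3 without the third libraries, with or without the GC trend, and 0 to 3 leaving out 1 library, with 3 without Ctrl_hnRNPK replicate 3 and 1 without Ctrl_hnRNPK replicate 2 or Antisense_hnRNPK replicate 3.

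Of 1790 values of single genes under the alternatives, 1631 kept their side of the threshold, 1556 of them with the same sign and 75 with the opposite sign of a difference that passed in neither analysis. A further 89 lost the threshold with the same sign, 67 passed it with the same sign, and 3 that had passed lost it and changed sign (ID1, above). With the replicate block 97 of 100 kept their side and 3 passed it, all in CRLM1_hnRNPK against Ctrl_hnRNPK. In the other comparisons same-numbered libraries had r of -0.103 to 0.0588, so no pairing by number was seen in these deviations. Against NC, library 3 of Ctrl_hnRNPK or CRLM1_hnRNPK stood apart and could hide a pairing, so a low r does not exclude it there. For CRLM1_hnRNPK against Ctrl_hnRNPK the correlations cannot decide on pairing, since library 3 stood apart in both groups. The median of all genes moved by over 0.1 (log2) on log2(FPKM + 0.1) for CRLM1_NC against Antisense_NC (-0.154), Antisense_NC against Ctrl_NC (0.216) and Antisense_hnRNPK against Antisense_NC (0.213), on log2(FPKM + 1) for Antisense_NC against Ctrl_NC (0.135), and without a filter for Antisense_hnRNPK against Antisense_NC (0.141). SMAD6, with 10 to 128 reads, was the gene most limited by depth.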
